A study of Mus musculus with 13 samples.

Results

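The genes of the proteasome were described in RNA sequencing data of mouse bone marrow progenitors in which Tifab, the microRNA miR-146a, or both had been deleted. Members were the symbols made of Psm, a letter from a to e and a number, without pseudogenes and without the unrelated Psmc3ip, and with an average level over all libraries of 0 or more log2 CPM (read counts scaled to the library total, on a log2 scale). The rule found 44 genes among the 24062 rows of the file, and all 44 passed the filter for testing, as did 11867 genes in all. The cells were LK cells sorted from bone marrow, which lack lineage markers and Sca-1 and carry c-kit, and which are mostly progenitors already committed to myeloid, erythroid or megakaryocyte fates. Donor marrow had the genotype TIFAB+/+;miR-146a+/+ (WT, 3 libraries), TIFAB-/-;miR-146a+/+ (TIFAB_KO, 3 libraries), TIFAB+/+;miR-146a-/- (miR-146a_KO, 3 libraries) or TIFAB-/-;miR-146a-/- (dKO, 4 libraries). All recipients, WT controls included, were Boy/J mice that had received 7.0 Gy and then 4.75 Gy after 3 h before the transplant, and the labels give an age of 2 to 5 months. The labels give each loss as homozygous in the donor and name no Cre, and recipient cells that survived irradiation would keep both genes. The labels state 3 mice per group and leave it unsaid whether every library came from its own mouse, so the p-values measure the spread between libraries, which may be technical.

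The proteasome degrades proteins marked with ubiquitin. Its 20S core is a barrel of alpha rings around beta rings, and 3 of the beta subunits cut peptide bonds: Psmb5 has chymotrypsin-like, Psmb6 caspase-like and Psmb7 trypsin-like activity. Interferon and inflammatory signals induce Psmb8, Psmb9 and Psmb10, which take the places of Psmb5, Psmb6 and Psmb7 in the immunoproteasome, a form that is abundant in blood cells and supplies peptides for MHC class I. The 19S cap recognises ubiquitin, unfolds the substrate and feeds it into the core, and alternative activators (Psme genes) can sit in its place. TIFAB restrains TRAF6 signalling and miR-146a represses the messages of TRAF6 and IRAK1, so both losses act on the innate immune pathway to NF-kB. Both human genes lie in the region lost in del(5q) myelodysplastic syndrome, and the study asked how the loss of one alters the effect of losing the other.

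By role the members were 8 alpha-ring genes (Psma1 to Psma8), 4 structural beta genes (Psmb1 to Psmb4), the constitutive catalytic genes Psmb5, Psmb6 and Psmb7, the immunoproteasome catalytic genes Psmb8, Psmb9 and Psmb10, and Psmb11, the catalytic subunit of the thymus. The 19S cap was covered by 6 base ATPases (Psmc1 to Psmc6), 3 scaffold and ubiquitin receptor genes (Psmd1, Psmd2 and Psmd4) and 8 lid genes (Psmd3, Psmd6, Psmd7, Psmd8, Psmd11, Psmd12, Psmd13 and Psmd14). The last members were 3 chaperones of base assembly (Psmd5, Psmd9 and Psmd10) and 5 activator genes (Psme1, Psme2, Psme2b, Psme3 and Psme4).

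Library totals were 7.83 to 12.8 M reads. Tifab, the deleted gene, had 5.34, 5.63 and 5.31 log2 CPM in WT libraries and 6.11, 6.15 and 6.01 in those of miR-146a_KO, against 3.17, 3.56 and 3.69 without Tifab (TIFAB_KO) and 2.64, 2.10, 1.72 and 3.46 without both genes (dKO). No library lacking Tifab overlapped one that keeps it, although reads remained in all of them. Kit, the marker of the sort, was at 8.08 to 8.84 log2 CPM in every library, and Ly6a, which encodes Sca-1, was at -0.61 to 2.42. TIFAB_KO replicate 3 and dKO replicate 3 were the least like the others (median correlation over genes 0.947 and 0.951, against 0.962 to 0.974).

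Sequences are given of miR-146a with its matches in the members' messages, and of stretches before the RefSeq starts of catalytic genes. The mature miR-146a-5p of RefSeq (chr11:43374435-43374456, minus strand, GRCm38.p6) is shown because its loss is one of the treatments, with the seed (bases 2 to 8) in capitals.
mmu-miR-146a-5p: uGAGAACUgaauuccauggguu
The perfect match of the seed, AGTTCTC, occurred in the annotated 3' untranslated region of 2 of the 44 members (4.55%) and of 1374 of 10842 tested genes with an annotated coding transcript (12.7%). Both sites lie in 19S lid genes and are shown with the match in capitals.
Psmd11: aggcggccAGTTCTCatgtaat
Psmd3: caataaaaAGTTCTCcagag
Psmd11 had 6.82, 6.59 and 6.91 log2 CPM in the WT libraries and 6.98, 6.77 and 6.93 in those of miR-146a_KO, and Psmd3 had 5.37, 5.65 and 5.50 in those of WT and 5.66, 5.41 and 5.45 in those of miR-146a_KO. The groups overlapped for both genes, with log2 fold changes of 0.12 ± 0.14 (SE) for Psmd11 and 0.00 ± 0.16 for Psmd3 (limma adjusted p = 0.783 and 0.994, n = 3 and 3). None of the catalytic genes holds the match.

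Promoters in RefSeq on GRCm38.p6 were found for 37 of the 44 members, some with more than 1 start, 40 promoters in all. RefSeq and GENCODE place some starts differently. All 250 bases before the RefSeq start of Psmb8, and likewise of Psmb9, lie in exons annotated by GENCODE, within the gene spans given below, and are not printed. Of the 250 bases before the starts of Psmb5, Psmb6 and Psmb10, the 223, 250 and 198 that lie outside annotated exons are shown to set an inducible gene beside constitutive ones, with motif matches in capitals.
Psmb10 promoter, chr8:105938445-105938642 (- strand): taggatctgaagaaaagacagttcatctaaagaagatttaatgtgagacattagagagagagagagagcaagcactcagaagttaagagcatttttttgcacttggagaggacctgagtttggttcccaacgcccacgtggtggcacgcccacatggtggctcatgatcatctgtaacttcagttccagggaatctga
Psmb5 promoter, chr14:54618023-54618245 (- strand): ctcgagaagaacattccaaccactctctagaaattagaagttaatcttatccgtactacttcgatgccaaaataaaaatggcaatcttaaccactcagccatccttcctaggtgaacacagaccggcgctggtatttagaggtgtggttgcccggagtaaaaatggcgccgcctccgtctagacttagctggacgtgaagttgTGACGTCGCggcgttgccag
Psmb6 promoter, chr11:70525107-70525356 (+ strand): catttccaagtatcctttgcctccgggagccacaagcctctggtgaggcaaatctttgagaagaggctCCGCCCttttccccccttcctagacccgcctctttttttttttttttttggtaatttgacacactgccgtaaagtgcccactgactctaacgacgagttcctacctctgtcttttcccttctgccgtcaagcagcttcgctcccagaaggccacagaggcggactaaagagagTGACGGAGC
The motifs were searched on both strands in windows of 300 bases, which also hold the 50 bases after the start. The capitals in Psmb5 and Psmb6 are the core of an antioxidant response element, TGACNNNGC (15% of 40 member promoters and 12.4% of all 32851 promoters), and in Psmb6 also a GC box (GGGCGG, 57.5% of member promoters and 35.7% of all). The window of Psmb8 holds the letters of an interferon gamma-activated site, TTCNNNGAA, as 5% of member promoters and 8.3% of all do. That of Psmb9 holds a GC box and a CCAAT box (CCAAT, 35% and 37.4%), and that of Psmb10 none of the 6 motifs searched. The interferon-stimulated response element core GAAANNGAAA was in 4 member promoters (10%, against 3.44% of all), those of Psmb3, Psmd4, Psmd9 and Psme1, and the NF-kB form GGGANNTTCC was in that of Psme4 alone (2.5%, against 1.47%). These are matches of letters, not shown sites of binding.

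WT LK cells expressed both kinds of catalytic subunit. Per kilobase of the longest coding transcript, the WT levels were 6.77 ± 0.35 (SD, n = 3) log2 CPM per kb for Psmb5, 6.75 ± 0.31 for Psmb6 and 6.54 ± 0.18 for Psmb7. Psmb8 was at 6.43 ± 0.08, 0.34 ± 0.36 below Psmb5, a difference within its own spread. Psmb9 (5.20 ± 0.31) lay 1.55 ± 0.29 below Psmb6, and Psmb10 (5.12 ± 0.05) lay 1.42 ± 0.17 below Psmb7, both differences larger than the spread between libraries. The SDs do not cover the choice of transcript, and no other transcript was tried. RefSeq starts Psmb8 and Psmb9 inside their GENCODE spans, and a shorter transcript would raise their levels per kb, so the order of Psmb8 and Psmb5 is not settled. The highest member was Psme1, a subunit of the interferon-induced PA28 activator, at 9.05 ± 0.27, followed by the structural subunit Psmb2 at 7.40 ± 0.12 and Psma7 at 6.98 ± 0.33. From Psma7 down to Psmd5, at 3.76 ± 0.06, neighbours in the order differed by no more than the larger of their SDs, except from Psmd1 to Psmb4, Psmd6 to Psmc1, Psmc2 to Psmd11, Psme4 to Psmd4, Psmd4 to Psmd3, Psmd3 to Psmd13 and Psmd10 to Psmd5. The lowest were the chaperone Psmd9 (2.85 ± 0.30), the testis-enriched alpha subunit Psma8 (2.69 ± 0.28), Psme2b (1.08 ± 0.56) and Psmb11 (0.39 ± 0.30).

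No proteasome gene passed the test in any comparison. Each group was compared with limma over all 13 libraries, with Benjamini-Hochberg adjustment over all 11867 genes and a threshold of 0.05, and 0 of 44 members passed in each of the 7 tests. Among all genes the share passing was 0.0169% in TIFAB_KO against WT, 0.0843% in miR-146a_KO against WT, 0.0674% in dKO against WT, 0.0337% in dKO against TIFAB_KO, 0.0506% in dKO against miR-146a_KO, 0% for the interaction of both losses (the dKO mean plus the WT mean less both single-knockout means) and 0.110% for any difference among the 4 groups. At these shares fewer than 1 called member would be the background count. At an unadjusted p under 0.05 there were 0 members in TIFAB_KO against WT (5.11% of all genes), 3 in miR-146a_KO against WT (9.53%), 8 in dKO against WT (14.1%), 9 in dKO against TIFAB_KO (18.5%), 1 in dKO against miR-146a_KO (1.93%), 2 for the interaction (4.23%) and 5 for any difference (12.8%). By direction, 0 were lower (2.12% of all genes) and 0 higher (2.99%) in TIFAB_KO against WT. In dKO against miR-146a_KO 1 was lower (1.06% of all genes) and 0 higher (0.868%), and for the interaction 2 were lower (2.55%) and 0 higher (1.68%). Further, 2 members were lower (4.55%, against 2.30% of all genes) and 1 higher (2.27%, against 7.23%) in miR-146a_KO against WT. In dKO against WT 6 were lower (13.6%, against 4.36%) and 2 higher (4.55%, against 9.70%), and in dKO against TIFAB_KO 7 were lower (15.9%, against 5.93%) and 2 higher (4.55%, against 12.6%). In the last 3 comparisons the lower share of the members was thus above that of all genes and the higher share below it. These counts were lower with library depth in the model. With log2 total reads as a covariate, 1, 2 and 5 members had an unadjusted p under 0.05 in these 3 comparisons, against 3, 8 and 9 without it. The share of all genes under that covariate is not given, so whether the fall is particular to the members cannot be told. The 3 comparisons with WT share the same 3 WT libraries.

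The immunoproteasome catalytic genes had their highest group means in TIFAB_KO, and Psmb8 and Psmb9 their lowest in dKO. Psmb8 (chr17:34197721-34201454, plus strand, mm10) encodes the inducible chymotrypsin-like subunit. It had 7.09, 7.08 and 7.23 log2 CPM in the WT libraries, 7.36, 7.28 and 7.80 in those of TIFAB_KO, 7.44, 7.20 and 7.25 in those of miR-146a_KO, and 7.10, 6.24, 6.76 and 7.19 in those of dKO, in order of replicate number here and below. All TIFAB_KO libraries lay above all WT libraries. All dKO libraries lay below all libraries of both single knockouts, narrowly so for miR-146a_KO (7.19 against 7.20). Here and below, the share of all genes without overlap is not given for comparisons between knockouts. How common such a separation is among all genes therefore cannot be told. By a different measure, an unadjusted p under 0.05, the share of all genes was 18.5% in dKO against TIFAB_KO. It was 1.93% in dKO against miR-146a_KO. The log2 fold change was 0.35 ± 0.20 (SE) in TIFAB_KO against WT (limma adjusted p = 0.999, n = 3 and 3) and 0.16 ± 0.20 in miR-146a_KO against WT (adjusted p = 0.804). It was -0.31 ± 0.19 in dKO against WT (adjusted p = 0.455, n = 4 and 3), -0.66 ± 0.19 in dKO against TIFAB_KO (adjusted p = 0.141) and -0.48 ± 0.19 in dKO against miR-146a_KO (adjusted p = 1.00). The interaction was -0.82 ± 0.28 (unadjusted p = 0.00837, limma adjusted p = 0.945), the smallest unadjusted p of the members for that term.

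Psmb9 (chr17:34181987-34187764, minus strand), the inducible caspase-like subunit, followed a like order with a wider spread. It had 5.91, 5.67 and 5.31 log2 CPM in the WT libraries, 5.67, 6.11 and 6.43 in those of TIFAB_KO, 5.53, 5.57 and 5.61 in those of miR-146a_KO, and 5.26, 4.42, 5.37 and 5.59 in those of dKO. TIFAB_KO overlapped WT, and all dKO libraries lay below all TIFAB_KO libraries. The log2 fold change against WT was 0.44 ± 0.25 for TIFAB_KO, -0.06 ± 0.25 for miR-146a_KO and -0.47 ± 0.24 for dKO (limma adjusted p = 0.999, 0.953 and 0.374). Against TIFAB_KO the dKO value was -0.91 ± 0.24 (unadjusted p = 0.00115, adjusted p = 0.131), and the interaction was -0.85 ± 0.35 (adjusted p = 1.00). Psmb9 overlaps Tap1, a peptide transporter gene on the opposite strand, by 212 bases, and whether counting used strand is not stated in the sources used here, so reads there cannot be told apart. Tap1 itself differed by -0.11 ± 0.17 in dKO against TIFAB_KO (limma adjusted p = 0.740).

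Psmb10 (chr8:105935735-105938444, minus strand), the inducible trypsin-like subunit, differed least. It had 5.57, 5.48 and 5.48 log2 CPM in the WT libraries, 5.71, 5.63 and 5.97 in those of TIFAB_KO, 5.69, 5.79 and 5.55 in those of miR-146a_KO, and 5.71, 5.16, 5.85 and 5.58 in those of dKO. TIFAB_KO lay above WT without overlap (log2 fold change 0.26 ± 0.18, limma adjusted p = 0.999), and dKO, from 5.16 to 5.85, overlapped every other group. In TIFAB_KO against WT the members with no overlap were Psmb8 and Psmb10 above (5.21% of all genes) and the activator gene Psme3 below (3.31%).

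Single libraries carried part of these differences. dKO replicate 2 had the lowest value of all 13 libraries for Psmb8, Psmb9 and Psmb10, and without it the dKO against TIFAB_KO values were -0.46 for Psmb8 and -0.66 for Psmb9, those against miR-146a_KO -0.28 and -0.16, and those against WT -0.12 and -0.22. TIFAB_KO replicate 3 had the highest, and without it TIFAB_KO against WT came to 0.19 for Psmb8 and 0.26 for Psmb9. The Psmb9 value was 0.28 without WT replicate 3. dKO replicate 4 was the dKO library with the highest Psmb8 and Psmb9. Without it 3 members passed in dKO against TIFAB_KO: Psmb8 (-0.78, limma adjusted p = 0.0403, range over all alternatives 0.0403 to 0.688), Psmb9 (-1.05, adjusted p = 0.0320, range 0.0320 to 0.688) and Psmb6. Psmb6 and Psma3 then also passed in dKO against WT. Leaving out this library, with the filter applied anew, gave 278 calls among all genes tested in dKO against TIFAB_KO and 336 in dKO against WT.

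The constitutive catalytic genes had lower group means in miR-146a_KO and dKO than in WT, with no gene past the threshold. Psmb5 (chr14:54614119-54618022, minus strand) had 6.98, 6.28 and 6.59 log2 CPM in the WT libraries, 6.26, 6.66 and 6.93 in those of TIFAB_KO, 6.22, 6.38 and 6.36 in those of miR-146a_KO, and 5.98, 6.33, 6.51 and 6.63 in those of dKO. Psmb6 (chr11:70525367-70527858, plus strand) had 6.76, 6.16 and 6.36 in the WT libraries, 6.11, 6.39 and 6.66 in those of TIFAB_KO, 6.05, 5.90 and 6.30 in those of miR-146a_KO, and 5.71, 5.57, 5.66 and 6.58 in those of dKO. Psmb7 (chr2:38588036-38644087, minus strand) had 6.81, 6.55 and 6.89 in the WT libraries, 6.51, 6.39 and 6.98 in those of TIFAB_KO, 6.57, 6.60 and 6.17 in those of miR-146a_KO, and 6.50, 6.37, 6.58 and 6.60 in those of dKO. The groups overlapped WT for all 3 genes, and for Psmb6 the dKO libraries 1 to 3 lay below every other library while dKO replicate 4 was among the highest. In miR-146a_KO against WT the log2 fold changes were -0.30 ± 0.20, -0.34 ± 0.24 and -0.30 ± 0.17 for Psmb5, Psmb6 and Psmb7 (limma adjusted p = 0.638, 0.640 and 0.580). In dKO against WT they were -0.25 ± 0.19, -0.54 ± 0.22 and -0.24 ± 0.16 (adjusted p = 0.546, 0.295 and 0.496), and in TIFAB_KO against WT 0.00 ± 0.20, -0.04 ± 0.24 and -0.12 ± 0.17 (adjusted p = 0.999 each). WT replicate 1 had the highest Psmb5 and Psmb6 of all 13 libraries, and without it the values of Psmb5 and Psmb6 for miR-146a_KO were -0.11 and -0.17, and those for dKO -0.07 and -0.38. Without WT replicate 2 Psmb5 was at -0.47 for miR-146a_KO and at -0.42 for dKO, and without dKO replicate 1 at -0.12 for dKO. For Psmb7 the miR-146a_KO value was -0.16 without miR-146a_KO replicate 3. The span of Psmb7 overlaps that of Nek6, a gene on the opposite strand, by 6571 bases. The doubt on strand given for Psmb9 holds there too, and how much of this overlap lies in exons was not examined.

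**Figure D1:**
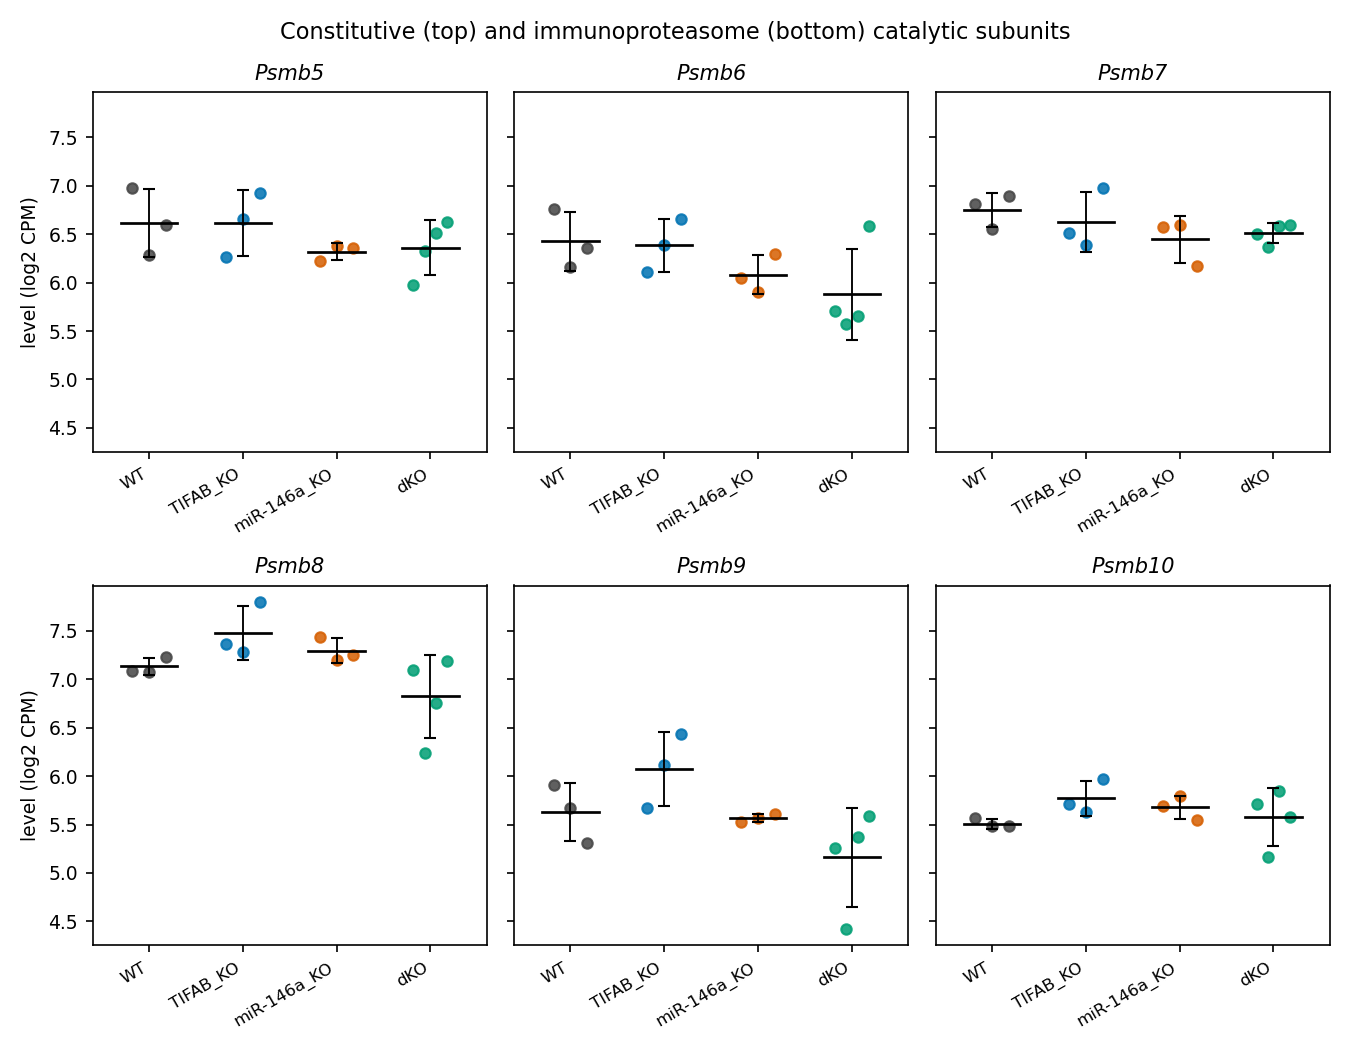
Level in log2 CPM (vertical axis, the same in all panels) of the 3 constitutive (top) and 3 immunoproteasome (bottom) catalytic genes in each library (points), by group, with the group mean (line) and SD (bars). Psmb8 in TIFAB_KO (7.28 to 7.80) lies above WT (7.08 to 7.23), and dKO replicate 2 is the lowest point in each bottom panel.

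The balance of both forms was taken in each library as the mean log2 CPM of Psmb8, Psmb9 and Psmb10 minus that of Psmb5, Psmb6 and Psmb7, a description with no test. It was -0.66, -0.25 and -0.61 in the WT libraries, -0.04, -0.14 and -0.13 in those of TIFAB_KO, -0.06, -0.10 and -0.14 in those of miR-146a_KO, and -0.04, -0.81, -0.26 and -0.49 in those of dKO. These values are not scaled to transcript length, so 0 does not stand for equal levels of both forms, and only groups are compared. Both single knockouts lay above every WT library, whereas dKO ran from -0.04, level with the highest single-knockout library, to the lowest value of all. The WT mean was -0.51 ± 0.22 (SD), that of TIFAB_KO -0.10 ± 0.05, that of miR-146a_KO -0.10 ± 0.04 and that of dKO -0.40 ± 0.33, or -0.26 without dKO replicate 2. The parts differed: in TIFAB_KO the immunoproteasome mean was 6.44 ± 0.26 against 6.09 ± 0.09 in the WT libraries with constitutive means of 6.54 ± 0.29 and 6.60 ± 0.26, while in miR-146a_KO the immunoproteasome mean was 6.18 ± 0.04 and the constitutive mean 6.28 ± 0.01. By pair, again without scaling to length, Psmb8 minus Psmb5 was 0.52 ± 0.36 in the WT libraries, 0.86 ± 0.24 in those of TIFAB_KO, 0.98 ± 0.21 in those of miR-146a_KO and 0.46 ± 0.51 in those of dKO. Per kb the WT difference had the other sign (-0.34 ± 0.36). Psmb9 minus Psmb6 was -0.79 ± 0.29, -0.32 ± 0.11, -0.51 ± 0.19 and -0.72 ± 0.41, and Psmb10 minus Psmb7 was -1.24 ± 0.17, -0.85 ± 0.14, -0.77 ± 0.13 and -0.94 ± 0.22, in the same order of groups.

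**Figure D2:**
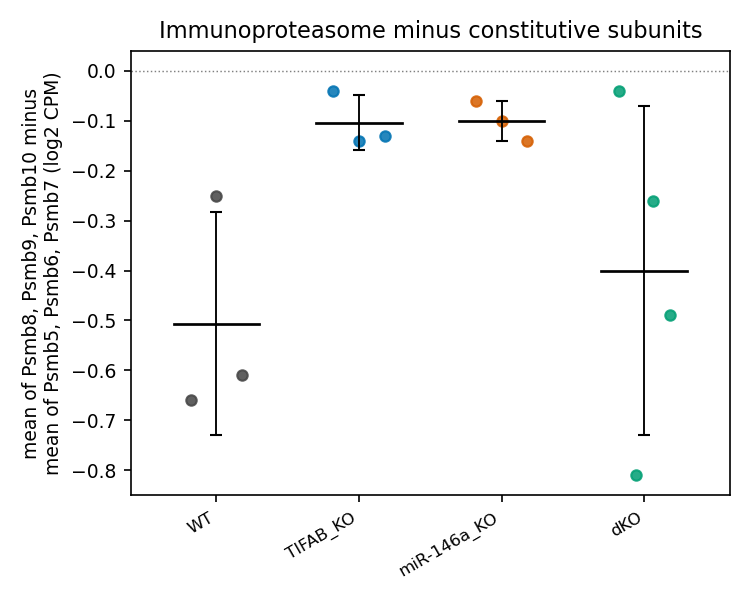
Mean log2 CPM of the 3 immunoproteasome genes minus that of the 3 constitutive catalytic genes (vertical axis) in each library (points), by group, with the group mean (line) and SD (bars). TIFAB_KO (-0.14 to -0.04) and miR-146a_KO (-0.14 to -0.06) lie above WT (-0.66 to -0.25), and dKO runs from -0.81 to -0.04.

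Markers of 1 class of LK cells were also highest in TIFAB_KO. The summed level of 6 granulocyte-monocyte progenitor markers (Mpo, Elane, Prtn3, Ctsg, Ms4a3 and Gfi1) was 7580 to 13200 CPM in WT, 15400 to 17300 for TIFAB_KO, 10300 to 13300 for miR-146a_KO and 8420 to 12800 for dKO. All 6 had a read in every group, and their median log2 fold change was 1.10 in TIFAB_KO against WT and -0.83 in dKO against TIFAB_KO. At an unadjusted p under 0.05 all 6 were higher in TIFAB_KO against WT (2.99% of all genes), lower in dKO against TIFAB_KO (5.93%) and lower for the interaction (2.55%, with a median of -1.25), and 0 of 6 passed after limma's adjustment in each of these tests. Psmb8 and Psmb9 had values of the same sign in all 3. Each of the 3 contains the TIFAB_KO mean, so any gene high in TIFAB_KO tends to take these signs, and the match links no genes. In sorted bulk cells, fewer cells of a type and less RNA per cell cannot be told apart. Summed macrophage and dendritic cell markers (10 of 11 listed genes in the file) were 254 to 342 CPM in WT, 378 to 416 without Tifab, 376 to 450 without miR-146a and 298 to 759 without both, with dKO replicate 3 the highest. The summed erythroid markers were 1750 to 2210 CPM in WT, and lower without overlap for TIFAB_KO (1140 to 1370) and miR-146a_KO (1300 to 1630), while dKO had 1280 to 2010. Megakaryocyte markers were 602 to 784 CPM in WT and lower without overlap for miR-146a_KO (393 to 591), with 572 to 659 for TIFAB_KO and 360 to 639 for dKO. B-lineage markers were 12.5 to 16.7 CPM in WT and higher without overlap for miR-146a_KO (22.9 to 25.9), with at most 16.0 for TIFAB_KO and 13.9 to 21.2 for dKO. Late granulocyte, T and NK cell, and stromal markers overlapped WT in every other group. The globin genes Hba-a1, Hba-a2, Hbb-bs and Hbb-bt, 4 of 10 erythroid markers, were at 0 in all libraries, and the B-cell gene Ms4a1 in those of TIFAB_KO. The part of these cell types in the proteasome values was not tested.

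The remaining genes of the core had lower mean levels in miR-146a_KO and dKO than in WT. Over the 14 constitutive 20S genes (Psma1 to Psma7 and Psmb1 to Psmb7) the median log2 fold change was -0.29 in miR-146a_KO against WT, with 13 of 14 below 0, and -0.26 in dKO against WT, again with 13 of 14. In each of these comparisons Psma4 was the exception. Over all genes tested the medians were 0.09 and 0.08, with 37.8% and 40.0% below 0. In TIFAB_KO against WT the 20S median was -0.01, equal to that of all genes, but -0.16 without TIFAB_KO replicate 3 and 0.10 without TIFAB_KO replicate 1. The 17 genes of the 19S base and lid had medians against WT of -0.06 for TIFAB_KO, -0.04 for miR-146a_KO and -0.12 for dKO. Over all 44 members the medians were -0.01, -0.10 and -0.13, with 30, 30 and 29 members below 0 (68.2%, 68.2% and 65.9%, against 52.4%, 37.8% and 40.0% of all genes). Single libraries set the size of these medians. Over all 44 members the lowest and highest values with 1 library left out were -0.11 (without WT replicate 2) and 0.07 (without TIFAB_KO replicate 1) for TIFAB_KO. They were -0.17 and -0.04 for miR-146a_KO and -0.23 and -0.08 for dKO, without WT replicate 2 and WT replicate 3 in turn. For the 19S genes, the values without those WT libraries were -0.10 and 0.01 for TIFAB_KO and -0.11 and -0.01 for miR-146a_KO, and dKO had -0.04 without WT replicate 3 or dKO replicate 2 and -0.06 without dKO replicate 1. Other scalings moved the number below 0 to between 21 and 32 for TIFAB_KO, 34 and 35 for miR-146a_KO and 36 and 38 for dKO, with the medians of all genes within 0.03 of 0. With log2 total reads as a covariate the numbers below 0 were 31, 25 and 26 in the same order of groups.

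Among the 20S genes Psma3 had the smallest p in miR-146a_KO against WT and Psmb4 in dKO against WT. Psma3, an alpha-ring subunit, had 7.86, 7.25 and 7.35 log2 CPM in the WT libraries, 6.98, 7.45 and 7.48 in those of TIFAB_KO, 7.04, 6.83 and 7.08 in those of miR-146a_KO, and 7.07, 6.57, 6.68 and 7.58 in those of dKO. All miR-146a_KO libraries lay below all WT libraries, and dKO replicate 4 was the only dKO library within the WT range. The log2 fold change was -0.50 ± 0.23 in miR-146a_KO and -0.51 ± 0.21 in dKO against WT (limma adjusted p = 0.521 and 0.305). Without WT replicate 1, its highest library, both values were -0.32 (adjusted p = 0.978 and 0.757, ranges over all alternatives 0.131 to 0.978 and 0.0447 to 0.757), and with log2 total reads as a covariate the value in miR-146a_KO was -0.28. Psmb4, a structural beta subunit, had 6.44, 6.28 and 6.37 in the WT libraries, 6.19, 6.38 and 6.72 in those of TIFAB_KO, 6.13, 6.16 and 5.98 in those of miR-146a_KO, and 5.93, 5.88, 6.00 and 6.16 in those of dKO. Every library lacking miR-146a was below every WT library, with -0.27 ± 0.16 in miR-146a_KO, -0.37 ± 0.15 in dKO against WT (limma adjusted p = 0.582 and 0.283) and -0.44 ± 0.15 in dKO against TIFAB_KO (adjusted p = 0.168). Psmb3 had -0.56 ± 0.26 in miR-146a_KO and -0.53 ± 0.25 in dKO against WT (limma adjusted p = 0.522 and 0.345), or -0.35 and -0.32 without WT replicate 1. In miR-146a_KO against WT, 9 members lay below WT without overlap (6.40% of all genes), namely Psma3, Psma7, Psma8, Psmb2, Psmb3, Psmb4, Psmc5, Psmd6 and Psmd10, and 2 lay above, Psmd2 and Psme2b (15.5% of all genes). In dKO against WT, 2 lay below, Psmb4 and Psmc4 (3.62%), and 2 above, Psme2b and Psme4 (8.90%). The separation was narrow for Psmc4 (5.36 against 5.37 log2 CPM) and within rounding for Psme4 (7.71 in both groups).

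**Figure D3:**
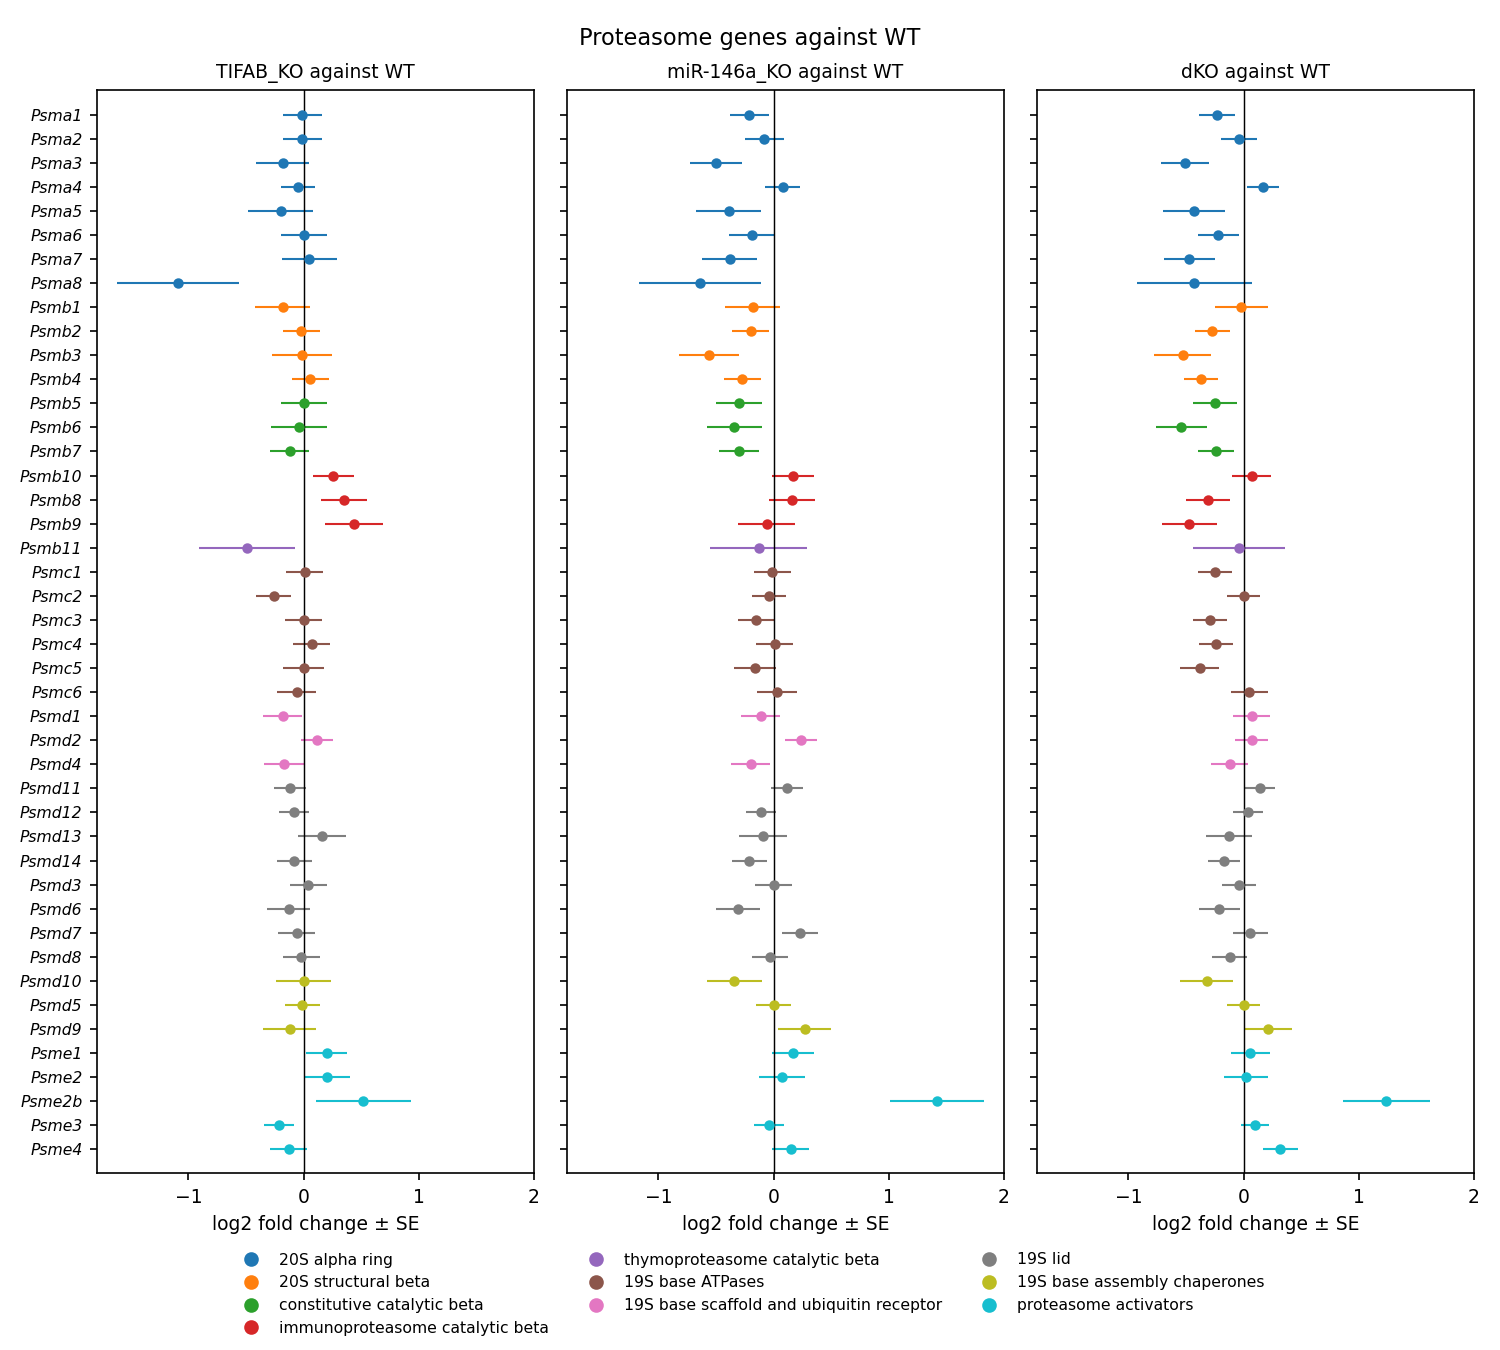
Log2 fold change against WT (horizontal axis) with its SE (bars) for all 44 proteasome genes (rows, coloured by role), for TIFAB_KO, miR-146a_KO and dKO. None passed the adjusted threshold. The 20S genes lie mostly left of 0 in miR-146a_KO and dKO (13 of 14 each), and Psme2b stands furthest right there (1.42 and 1.24).

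Library depth moved with the 20S levels. The 4 libraries with the most reads, TIFAB_KO replicate 3 (12.8 M), WT replicate 1 (12.0), dKO replicate 4 (11.7) and TIFAB_KO replicate 2 (11.1), had mean 20S levels of 6.92, 6.96, 6.75 and 6.68 log2 CPM. The other libraries had 6.29 to 6.68, and no miR-146a_KO library exceeded 10.5 M reads. The 19S genes spanned 6.27 to 6.53 over all 13 libraries. With log2 total reads as a covariate, an alternative chosen after seeing the data, the 20S median was -0.12 in miR-146a_KO and -0.20 in dKO against WT, and without WT replicate 1 it was -0.14 and -0.19. With that covariate Psmb8 was at -0.54 and Psmb9 at -0.71 in dKO against TIFAB_KO (limma adjusted p = 0.279 and 0.249, ranges over all alternatives 0.0403 to 0.688 and 0.0320 to 0.688).

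**Figure D4:**
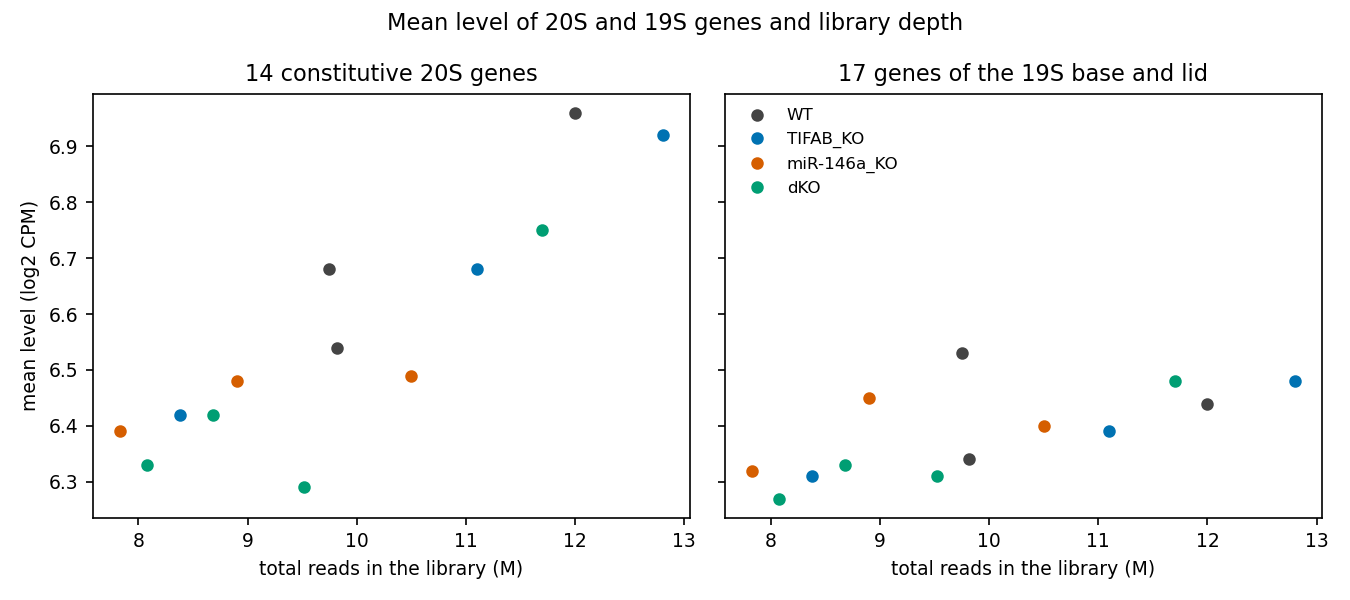
Mean level in log2 CPM (vertical axis) of the 14 constitutive 20S genes (left) and of the 17 genes of the 19S base and lid (right) against the total reads of the library in M reads (horizontal axis), 1 point per library, coloured by group. The 20S mean runs from 6.29 to 6.96 and is highest in deep libraries, and the 19S mean stays between 6.27 and 6.53.

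The 19S cap differed little. Its largest values were in the ATPase ring, where Psmc5 had -0.38 ± 0.17 in dKO against WT (limma adjusted p = 0.325) and -0.38 ± 0.17 in dKO against TIFAB_KO (adjusted p = 0.243). Psmc5 had 6.90, 6.68 and 6.77 log2 CPM in the WT libraries and 6.47, 5.96, 6.47 and 6.71 in those of dKO. The lowest value of all 13 libraries was again that of dKO replicate 2, and the Psmc5 difference without it is not given. Psmc2, another ATPase, had 6.36, 6.13 and 6.50 log2 CPM in the WT libraries, 6.04, 5.97 and 6.20 in those of TIFAB_KO, 6.26, 6.30 and 6.32 in those of miR-146a_KO, and 6.20, 6.52, 6.35 and 6.24 in those of dKO. TIFAB_KO overlapped WT at its top value, with a log2 fold change of -0.26 ± 0.15 (unadjusted p = 0.0955, limma adjusted p = 0.999), or -0.17 without WT replicate 3. The scaffold and receptor genes ranged from -0.18 (Psmd1) to 0.12 (Psmd2) in TIFAB_KO, from -0.20 (Psmd4) to 0.24 (Psmd2) in miR-146a_KO and from -0.12 (Psmd4) to 0.07 in dKO. The lid genes ranged from -0.13 (Psmd6) to 0.16 (Psmd13), from -0.31 (Psmd6) to 0.23 (Psmd7) and from -0.21 (Psmd6) to 0.14 (Psmd11) in the same order. Of the assembly chaperones, Psmd5 was at -0.01, 0.00 and 0.00, Psmd9 at -0.12, 0.27 and 0.21 and Psmd10 at 0.00, -0.34 and -0.32.

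Among the activators the smallest p of any member against WT belonged to Psme2b. This intronless copy of Psme2 lies at chr11:48945354-48946190 (minus strand), 5.57 Mb from the miR-146a gene on the same chromosome. It had 0.91, 0.23 and 1.33 log2 CPM in the WT libraries (22, 11 and 24 reads), 1.66, 1.20 and 1.16 in those of TIFAB_KO, 2.48, 2.59 and 1.65 in those of miR-146a_KO (49, 63 and 24 reads), and 2.46, 2.14, 2.07 and 1.56 in those of dKO (52, 35, 36 and 34 reads). Every library lacking miR-146a lay above every WT library, and TIFAB_KO overlapped both. The log2 fold change was 1.42 ± 0.41 in miR-146a_KO and 1.24 ± 0.38 in dKO against WT (unadjusted p = 0.00257 and 0.00434, limma adjusted p = 0.408 and 0.216), and 0.52 ± 0.41 in TIFAB_KO (adjusted p = 0.999). With library quality weights it passed in miR-146a_KO (1.68, limma adjusted p = 0.0201, range over all alternatives 0.0201 to 0.891) and in dKO (1.64, adjusted p = 0.0164, range 0.0164 to 0.621). The row is uncertain: its transcript is identical to that of Psme2 at 789 of 794 aligned bases (99.4%), and the whole gene lies within Gm12185 on the same strand. Gm12185 had 1.96 ± 0.74 in miR-146a_KO and 2.09 ± 0.69 in dKO against WT (limma adjusted p = 0.475 and 0.229), and its part in the Psme2b values was not tested.

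The PA28 genes themselves, Psme1 and Psme2, stayed within their spread. Psme1 was at 9.20 ± 0.27 (SD) log2 CPM in WT cells, 9.40 ± 0.22 without Tifab, 9.37 ± 0.11 without miR-146a and 9.26 ± 0.28 without both, and Psme2 at 5.97 ± 0.09, 6.16 ± 0.31, 6.04 ± 0.19 and 5.98 ± 0.34. Psme3, the nuclear activator PA28-gamma, had 8.28, 8.28 and 8.37 in the WT libraries and 8.21, 8.09 and 7.99 in those of TIFAB_KO, against 8.33, 8.36, 8.54 and 8.40 in those of dKO. The dKO libraries all lay above the TIFAB_KO libraries, with 0.31 ± 0.12 (limma adjusted p = 0.197). Psme4, the large activator PA200, had 7.67, 7.42 and 7.71 in the WT libraries, 7.60, 7.69 and 7.10 in those of TIFAB_KO, and 7.86, 8.14, 7.98 and 7.71 in those of dKO. Its values were 0.32 ± 0.15 in dKO against WT and 0.45 ± 0.15 in dKO against TIFAB_KO (limma adjusted p = 0.354 and 0.170). The lowest dKO library and the highest WT library were both at 7.71, so their separation is within rounding. TIFAB_KO replicate 3, at 7.10, was the lowest of all 13 libraries, and the Psme4 value without it is not given.

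**Figure D5:**
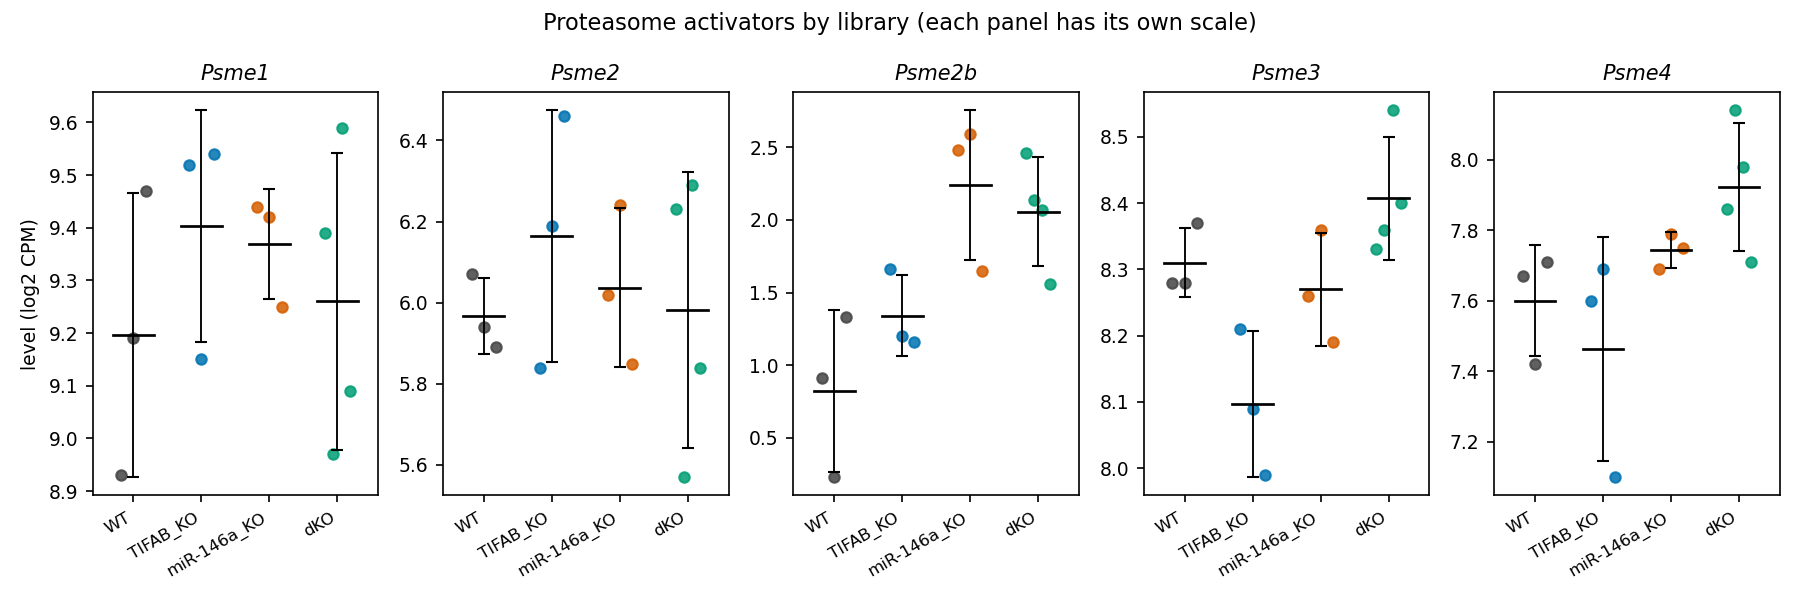
Level in log2 CPM (vertical axes, a separate scale in each panel) of the 5 activator genes in each library (points), by group, with the group mean (line) and SD (bars). Psme2b in miR-146a_KO (1.65 to 2.59) and dKO (1.56 to 2.46) lies above WT (0.23 to 1.33), at a level far below Psme1.

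The tissue-restricted subunits were low and uneven. Psma8, which replaces Psma7 in male germ cells, had 3.73, 3.44 and 3.17 log2 CPM in the WT libraries (159, 106 and 87 reads), 2.67, 3.35 and 1.05 in those of TIFAB_KO (53, 112 and 26 reads), 3.14, 2.32 and 2.97 in those of miR-146a_KO, and 3.36, 1.82, 2.65 and 4.23 in those of dKO. Its log2 fold change in TIFAB_KO against WT was -1.09 ± 0.53 (unadjusted p = 0.0557, limma adjusted p = 0.995), and -0.44 without TIFAB_KO replicate 3. Psmb11, the subunit of thymic epithelium, was at 2.24 to 2.81 in the WT libraries and at 0.68 in TIFAB_KO replicate 3, with 20 to 69 reads over all libraries.

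The wider pathway likewise gave 0 calls. Of 19 tested genes of proteasome assembly and regulation, 0 were below and 5 above WT at an unadjusted p under 0.05 in dKO (4.36% and 9.70% of all genes), led by the ubiquitin ligase Ube3a (0.65 ± 0.20), Nfe2l2, the regulator of the antioxidant response (0.61 ± 0.20), and the proteasome-bound ligase Ube3c (0.51 ± 0.19), with limma adjusted p = 0.216, 0.233 and 0.270. Of 13 interferon regulators of the immunoproteasome, 0 were below and 5 above WT at an unadjusted p under 0.05 in miR-146a_KO (2.30% and 7.23% of all genes). The counts in dKO were the same, 0 and 5 (4.36% and 9.70% of all genes). In miR-146a_KO the MHC class I transactivator Nlrc5 had 0.93 ± 0.28, Stat2 0.73 ± 0.22 and the interferon receptor Ifnar1 0.47 ± 0.15 (limma adjusted p = 0.408 each), and in dKO they had 0.72 ± 0.26, 0.52 ± 0.21 and 0.36 ± 0.14 (adjusted p = 0.254, 0.283 and 0.278). In TIFAB_KO, where Psmb8 was highest, Jak2 had -0.39 ± 0.17 and Irf9 0.41 ± 0.19 (limma adjusted p = 0.950 and 0.968). Of 13 MHC class I processing genes, 0 were below and 2 above in miR-146a_KO (2.30% and 7.23% of all genes). The 2 were the chaperones Calr (0.66 ± 0.24) and Pdia3 (0.53 ± 0.20, limma adjusted p = 0.473 and 0.475). In dKO 1 was below and 0 above (4.36% and 9.70% of all genes), the first being the class I gene H2-D1 (-0.31 ± 0.15, limma adjusted p = 0.354). The gene with the smallest p of this list for the interaction, Tapbpl, a peptide-loading factor, had -0.86 ± 0.35 (limma adjusted p = 1.00).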

How the data were processed

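Total RNA of LK cells was amplified by the NuGEN Ovation v2 kit and made into Nextera XT libraries, per the labels' protocols. Per the submitters' processing notes, TopHat, mm10, featureCounts and limma were used, whose versions are not stated in the sources used. The deposited values are log2 CPM of the voom form, computed by the authors, in which 0.5 is added to a gene's reads and 1 to the sum over genes. From these, 100% of values gave whole reads within 0.01 read.

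limma 3.58.1 in R 4.3.3 was run on the deposited values with 1 mean per group over 13 libraries, a variance trend (residual degrees of freedom 9, prior 9.53), a filter at a mean of 0 log2 CPM and Benjamini-Hochberg adjustment over 11867 genes. It was tested on simulated data. Group errors are SD, those of fold changes SE. Gene positions, transcripts and 3' untranslated regions were those of GENCODE M21 (44 of 44 members matched), and miRNA and promoter sequences those of RefSeq.

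Members and lists were chosen with earlier results of these data known. Full values are given for the 6 catalytic genes and the 2 members with the smallest p in each contrast against WT and the interaction, and for up to 3 genes per pathway list. One further pathway list is not reported here. Other members are given by role and range. Some activators, and Psmb6, Psma3, Psmb3 and Psmc5 in other contrasts, were picked after their values were seen. Alternatives covered filters, scalings, variance models, weights, the groups fitted, a replicate block, depth as a covariate and each library left out.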

Additional observations from a re-analysis of the deposited data

Results flagged for a closer look

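Psmb6 in dKO replicate 4, at 6.58 log2 CPM, stood apart from the other dKO libraries, of which the nearest had 5.71, a gap of 0.857 of the whole range of the group. It was the only one of 47 values tested in the 4 dKO libraries to do so. Chance sets about 1 in 20 such groups apart.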

How the results depend on the processing

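The count of members passing the adjusted threshold was 0 in all 7 tests and stayed 0 in TIFAB_KO against WT, dKO against miR-146a_KO and the interaction under every alternative run. Library quality weights gave 1 member (Psme2b) in miR-146a_KO against WT, in dKO against WT and for any difference among the groups. They also raised the calls among all genes from 10 to 213 and from 8 to 792. Leaving out each library in turn gave 0 to 2 members in dKO against WT and 0 to 3 in dKO against TIFAB_KO, the higher counts without dKO replicate 4. A block on replicate number gave 1 member in dKO against WT (Psmb6) and 2 in dKO against TIFAB_KO (Psmb8 at -0.78 and Psmb9 at -1.05, limma adjusted p = 0.0443 and 0.0469, ranges over all alternatives 0.0403 to 0.688 and 0.0320 to 0.688). That block takes up dKO replicate 4 whole, since no other group has that number. The numbers share little else: 2 of 18 same-numbered pairs had a correlation of deviations over 0.1 (-0.20 to 0.23), and 4 of 13 libraries correlated best with their own number. The block gave 281 calls among all genes in dKO against WT and 146 in dKO against TIFAB_KO. The immunoproteasome minus constitutive difference, as the median over the 3 pairs, was -0.79 for the WT libraries, -0.32 for those of TIFAB_KO, -0.49 for those of miR-146a_KO and -0.72 for those of dKO, and as the log2 ratio of summed CPM -0.31, 0.10, 0.12 and -0.25 in that order. The cause of these changes was not tested. With 20 to 69 reads for Psmb11 and 11 to 63 for Psme2b, counting error limits both.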
